A study of Mus musculus with 4 samples.

Results

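Cells of the loop of Henle and distal tubule were sought in Drop-seq libraries of mouse kidney as barcodes with at least 2 UMIs (counts) summed over Slc12a1, Tmem52b, Sostdc1, Umod, Tmem213 and Npb, and with mitochondrial genes at no more than 10% of their UMIs. Of 15144 barcodes, 12399 were within the mitochondrial limit, and 668 of these met the rule and are called members here. Kidneys were taken at E14.5 from wildtype embryos (2 libraries) and from embryos labelled Hoxa9,10,11 and Hoxd9,10,11 -/- (2 libraries, called mutant), and all were of a mixed strain, mostly of CD-1 and 129 origin. No other allele or treatment is labelled for either group. Drop-seq catches single cells in droplets with barcoded beads and reads the 3' ends of their transcripts. The labels do not say that libraries came from separate animals or how many were pooled, so a p-value here speaks of differences among libraries alone, and these may be technical.

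The loop of Henle is the hairpin segment of the nephron between the proximal and the distal tubule, and its thick ascending limb takes up salt without water. Slc12a1 encodes the sodium, potassium and chloride cotransporter that carries this uptake, and Umod encodes uromodulin, the abundant protein of normal urine that the same segment secretes. Loop and distal tubule arise from the distal end of the early nephron, beside the connection to the ureteric bud tree that forms the collecting ducts.

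Wildtype 1 held 108 members and wildtype 2 held 250, against 44 in mutant 1 and 266 in mutant 2. Members made up 5.54% (95% Clopper-Pearson interval 4.57 to 6.65), 4.96% (4.38 to 5.60), 5.16% (3.77 to 6.86) and 5.84% (5.17 to 6.56) of the barcodes within the limit, in that order. The intervals cover counting error only. The genotypes overlapped, at 5.25% ± 0.411 (SD, n = 2) in wildtype and 5.50% ± 0.480 (n = 2) in mutant libraries, a difference of 0.247 percentage points (exact two-sided permutation p = 0.667, where 2 against 2 libraries cannot go below 0.333). The share of barcodes that met the rule depended on depth, from 1.54% of those with up to 1000 UMIs to 24.6% of those above 16000. Members had median depths of 5296.5, 6373.5, 5870 and 4245 UMIs, and the other barcodes 3519, 3355.5, 2385 and 2920. With each barcode thinned to 1000 UMIs, which leaves out shallower ones, members made up 2.05% of wildtype and 2.27% of mutant barcodes on average.

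The libraries held from 3572346 UMIs (mutant 1) to 24834658 (wildtype 2), and the members together from 385959 (mutant 1) to 2655208 (wildtype 2). Barcodes above the mitochondrial limit made up 7.76% and 9.06% of the wildtype and 19.6% and 29.1% of the mutant libraries. No member barcode sequence was shared between libraries, and 3 sequences were shared among all barcodes. Very deep barcodes stood apart in the wildtype libraries: 1 member of wildtype 1 with 268158 UMIs gave 23.96% of the member UMIs of that library, and 1 of wildtype 2 with 325686 gave 12.3%. The main comparisons below are also given without the 6 members above 50000 UMIs.

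The members were defined mostly by Sostdc1. This secreted antagonist of BMP and Wnt signals (chromosome 12, 36314139 to 36318452, mm10) was found in 559 of the 668 members, Tmem52b, a transmembrane protein gene (chromosome 6, 129512555 to 129519227), in 288, and Slc12a1 (chromosome 2, 125152505 to 125230002) in 207. Npb, the gene of neuropeptide B (chromosome 11, 120608477 to 120609093), was found in 165 members, Tmem213 (chromosome 6, 38109255 to 38115809) in 140 and Umod (chromosome 7, 119462711 to 119479282) in 19. A single rule gene carried 284 of the members, and all 6 were found together in 7.

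These genes chose the members, so their levels are given as a description. Slc12a1 stood at 192 and 104 CPM (UMIs scaled to the same total over the members of each library) in the wildtype libraries and at 264 and 606 in the mutant libraries. Sostdc1 stood at 383 and 456 against 308 and 719 CPM, and Tmem52b at 426 and 149 against 197 and 254. Only the levels of Slc12a1 did not overlap between genotypes among these 3 genes. Umod was rare, at 0.893 and 3.39 against 2.59 and 11.8 CPM, from 1, 9, 1 and 19 UMIs. Tmem213 gave 40.2 and 92.3 against 75.1 and 53.2 CPM, and Npb 59.0 and 74.6 against 72.5 and 77.3. Of the 245 Tmem213 UMIs in wildtype 2, 91 came from 1 member. The largest level of any rule gene in the other barcodes was 9.32 CPM, for Sostdc1 in mutant 2.

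**Figure D1:**
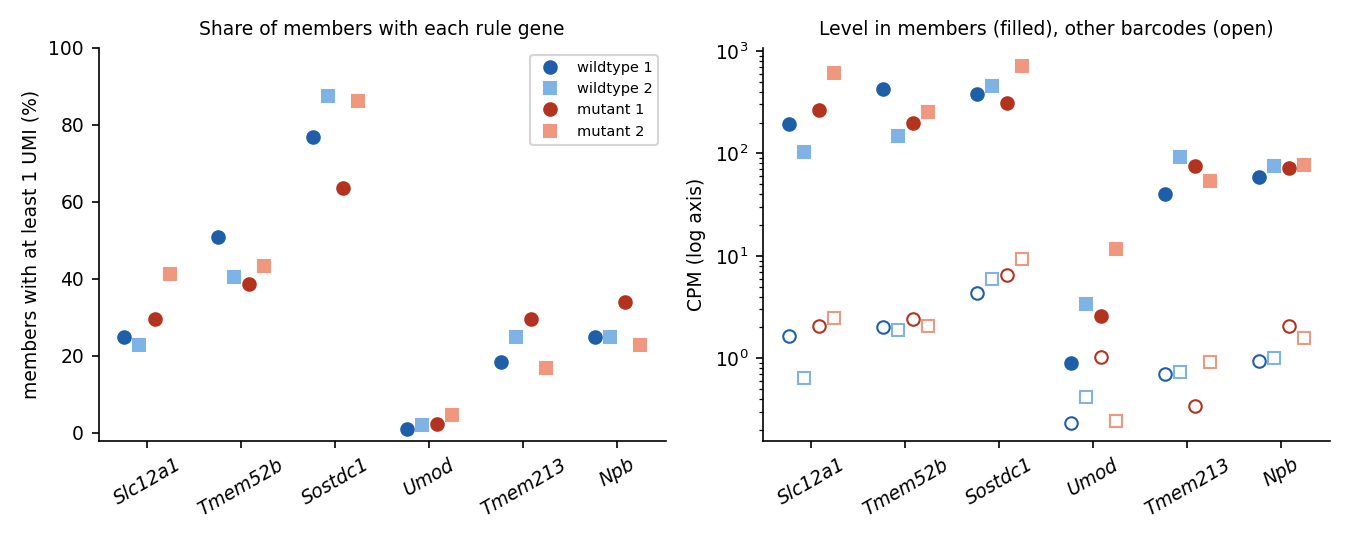
Left, the percentage of members with at least 1 UMI of each rule gene, 1 point per library; right, CPM on a log axis in members (filled) and in the other barcodes within the mitochondrial limit (open). Sostdc1 is found in 63.6% to 87.6% of members, Umod in 0.926% to 4.51%, and the highest open point is Sostdc1 of mutant 2 at 9.32 CPM.

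Free RNA can give a UMI in a cell that does not express a gene, so barcodes of other kinds were put through the same rule. Among barcodes with at least 10 UMIs of macrophage genes, 1 of 151 met it (0.662%, interval 0.0168 to 3.63, median depth 2764 UMIs), and among those with at least 10 UMIs of endothelial genes 5 of 617 did (0.810%, 0.264 to 1.88, median 5271). With at least 2 such UMIs, the shares were 3.42% of 322 and 3.28% of 1494. None of 68 barcodes with over 50% haemoglobin met the rule; an upper limit set at 3 counts, in place of an interval, allows a share of up to 4.41%. The rate over all 12399 barcodes was 5.39%.

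Barcodes just inside the threshold differed from those far above it. The 198 barcodes with exactly 2 rule UMIs had 843 summed CPM of 26 loop transport genes (chloride and potassium channels, claudins, sodium pump subunits and kinases that control salt uptake), the 97 with 3 had 899 and the 373 with 4 or more had 2076. Just outside it, the 629 barcodes with 1 rule UMI had 550. Cldn16, a claudin that lets magnesium and calcium pass between cells of the thick ascending limb, stood at 1.09 CPM with 1 rule UMI, 2.10 with 2, 4.08 with 3 and 34.1 with 4 or more. Kcnj1, the potassium channel that returns potassium to the lumen there, stood at 0.544, 0, 0 and 26.9. The 14 stroma genes went the other way, at 2720, 1835, 1014 and 726 CPM.

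The label was checked on the genes that mark its segments. Genes of the thick ascending limb outside the rule were present: Cldn16 gave 129 UMIs in members, Cldn19, its partner in the cation pore, 162, and Kcnj1 97. Bsnd, a chloride channel subunit gene, gave 47. Slc12a3, the sodium chloride cotransporter that defines the distal convoluted tubule, was at 0 UMIs in all 668 members. Other genes of later segments were close to 0, with 3 UMIs of the magnesium channel Trpm6 and 1 of Pvalb. Further genes of the loop transport list, not particular to later segments, were close to 0 too. They gave 9 UMIs of Egf, 5 of Ptger3, 4 of the calcium-sensing receptor Casr, 4 of Ppp1r1b, 3 of Slc9a3 and 2 of Cldn14. The data therefore carry the loop name for some members and give no defining gene of the distal convoluted tubule.

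Members stood apart from the other barcodes in many epithelial genes, again as a description because the rule drew both sides from the same cells. Of 11086 genes with at least 30 UMIs in members, 26.5% were higher in members in 4 of 4 libraries and 14.8% lower. Against that, 21 of 22 epithelial genes, 15 of 17 loop transport genes and 15 of 18 transcription factor genes of tubule segments were higher in 4 of 4, with median log2 ratios (5 CPM added) of 2.38, 1.75 and 1.58 beside 0.06 over all genes. Lists of other epithelia were higher too, with 7 of 10 proximal tubule genes (median 1.12) and 7 of 13 ureteric bud genes (0.94) in 4 of 4. Without the members above 50000 UMIs, the ureteric bud median was 0.59, with 6 of 13 higher. The 20 genes with the largest mean log2 ratio were led by Ly6a, a lipid-anchored surface protein (3.79), Mal, a protein of apical membrane sorting (3.55), and Tfap2b, a transcription factor of the early distal nephron (3.46). Tfap2b gave 490 and 321 CPM in wildtype and 368 and 636 in mutant members, against 39.3, 29.98, 41.0 and 32.0 in the other barcodes. Tfcp2l1, a transcription factor of distal tubule and collecting duct, stood at 3.17, with 158, 118, 176 and 277 CPM in members against 17.6, 9.79, 19.2 and 14.51. Cdh16, the kidney-specific cadherin, stood at 2.99 and Atp1b1, the beta subunit of the sodium pump, at 2.97.

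Others of the 20 were Cdkl1 (3.17), Wfdc15b (3.03), the serine protease gene Tmprss2 (2.77), the metallothionein gene Mt2 (2.69), Pdzk1ip1 (2.66), the keratins Krt8 (2.65) and Krt18 (2.65), the potassium channel gene Kcnj16 (2.63), Cldn8 (2.62), E-cadherin Cdh1 (2.59), Cldn7 (2.55), Paqr5 (2.54) and the mitochondrial protein gene Chchd10 (2.51). With any single library left out, 15 to 18 of the 20 stayed among the largest 20, and all 20 stayed higher in the other 3 libraries. Without the members above 50000 UMIs all 20 stayed higher in 4 of 4, with the largest of the named shifts in Krt18 (2.06), and 24.6% of all genes were higher and 15.6% lower. Genes of oxidative phosphorylation were higher in 4 of 4 for 19 of 21, at a median log2 ratio of 0.45. DNA replication genes were lower in 4 of 4 for 13 of 16 (-0.35), mitotic genes for 8 of 16 (-0.33), stroma genes for 10 of 12 (-1.80) and imprinted growth genes for 11 of 12 (-0.88).

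**Figure D2:**
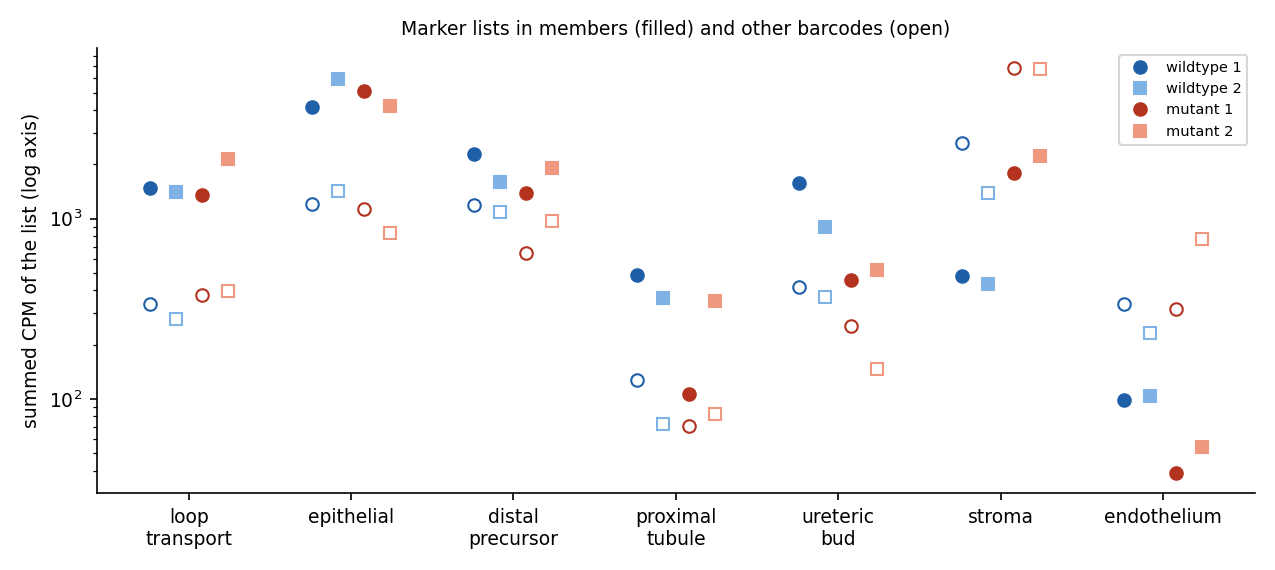
Summed CPM on a log axis of 7 marker lists in members (filled) and the other barcodes (open), 1 point per library. Loop transport genes stand at 1355 to 2135 CPM in members against 276 to 398 outside, and the stroma list is higher in both mutants than in both wildtypes on either side.

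Segment transcription factors were not equally restricted to members. Pou3f3, a POU factor needed for the loop of Henle, stood at 312 and 114 CPM in wildtype and 109 and 278 in mutant members, against 27.7 to 54.3 in the other barcodes. Irx1 and Irx2, Iroquois factors of the intermediate nephron, stood at 14.3 to 52.0 and 13.4 to 44.0 CPM in members against 4.23 to 6.64 and 2.12 to 6.83 outside. Ppargc1a, a coactivator of mitochondrial genes, had a mean log2 ratio of 2.45, and the nuclear receptor gene Esrrg 1.78. Irx3 (0.07) and Pax8 (0.47), a factor of the whole nephron lineage, differed little. Of the early distal nephron list, Sim1 was higher in members in 4 of 4 (1.81), and Dkk1 (-0.32) and Wnt4 (-0.32) were not.

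The members were of mixed make-up. UMIs of at least 2 from the ureteric bud and collecting duct list were found in 328 of 668 (49.1%), from the proximal tubule list in 120 (18.0%), and from the stroma list in 252 (37.7%). Over all 12399 barcodes within the limit, the numbers were 2089, 669 and 7935, in that order. Stroma UMIs were thus less common in members than over all barcodes, and those of the other lists more common. A narrower distal rule of at least 2 UMIs over Sim1, Tfap2b and Papss2 took 961 barcodes. It shared 374 with the members, which is 56.0% of the members and 38.9% of the barcodes of that rule. The members were therefore divided by 2 rule genes that belong to the thick ascending limb: 212 carried Slc12a1 or Umod (193 had Slc12a1 without Umod, and 19 had Umod), and 456 carried neither. This division, like the rule, used the measured counts. At least 2 UMIs of the ureteric bud list were found in 41.5% of the 212 and in 52.6% of the 456. Much of that list in the 212 was Hoxb7, which did not separate the sub-groups (mean log2 ratio 0.26). Hoxb7 gave 216 and 247 CPM in wildtype and 247.5 and 234 in mutant libraries there. The whole list summed to 497 and 310 against 269 and 339 CPM.

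The 212 Slc12a1 or Umod members numbered 27 of 108 in wildtype 1, 59 of 250 in wildtype 2, 13 of 44 in mutant 1 and 113 of 266 in mutant 2. These are 25.0% and 23.6% of wildtype and 29.5% and 42.5% of mutant members. The mutant libraries were both higher, at 36.0% ± 9.15 against 24.3% ± 0.990 (n = 2 each), with the smallest exact permutation p that this design allows (0.333). As a share of all barcodes within the limit they made up 1.39% and 1.17% of wildtype and 1.52% and 2.48% of mutant libraries (exact permutation p = 0.333). Thinning to 1000 UMIs left out 4, 6, 1 and 17 shallower members, and Slc12a1 was then found in 15.4%, 8.61%, 14.0% and 26.9% of members, so that mutant 1 lay between the wildtype libraries. Median depth was 5170.5 UMIs in the Slc12a1 or Umod members and 5442.5 in the others.

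Between these sub-groups, loop genes separated in every library. Of 11086 genes, 8.89% were higher in the Slc12a1 or Umod members in 4 of 4 libraries and 11.7% lower; 10 of 17 loop transport genes were higher and none was lower. Cldn16 stood at 199, 79.6, 53.8 and 49.8 CPM (wildtype 1, wildtype 2, mutant 1, mutant 2) in the Slc12a1 or Umod members and at 0, 6.04, 3.41 and 3.15 in the others. Kcnj1 stood at 81.8, 51.7, 32.3 and 61.8 against 2.11, 4.65, 0 and 1.05. Neither gene overlapped between the sub-groups in these libraries, although their UMIs in mutant 1 were few (5 for Cldn16 and 3 for Kcnj1 in the Slc12a1 or Umod members).

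The other genes with the largest ratios were Shd, an adaptor protein gene (mean log2 ratio 2.59), Fabp3, which binds fatty acids and has a near-identical copy (2.53), Cldn19 (2.43), Afp, the fetal serum protein gene (2.36), Ly6a (2.25), the tight junction gene Cldn1 (2.19), Fxyd2, a regulatory subunit of the sodium pump (2.10), and Irx1 (1.98). Atp1b1 stood at 1.89. Tfap2b stood at 1127, 615, 839 and 1078 CPM against 375, 253, 218 and 328. Oxidative phosphorylation genes were higher in 4 of 4 libraries for 16 of 21, at a median log2 ratio of 0.49. Without the members above 50000 UMIs, 10 of 17 loop transport genes were again higher in 4 of 4, beside 9.55% of all genes higher and 10.7% lower.

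**Figure D3:**
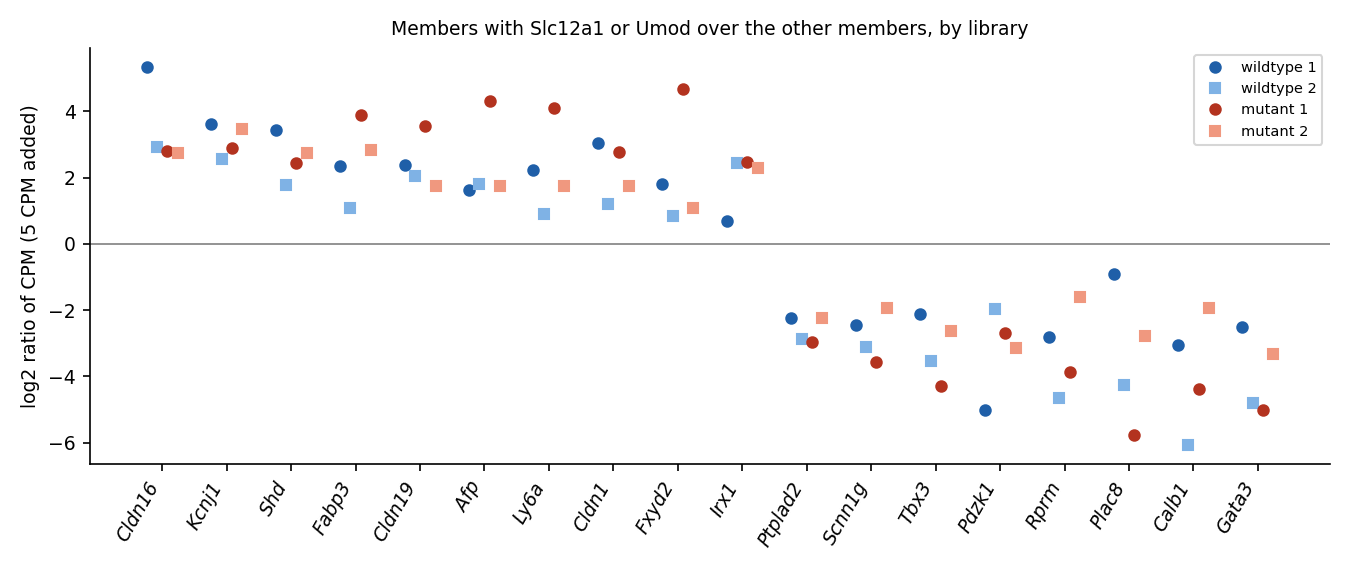
Log2 ratio of CPM (5 CPM added) in members with Slc12a1 or Umod over the other members, 1 point per library, for genes among the 10 with the largest mean ratio in each direction. Every point of the genes on the left, from Cldn16 to Irx1, lies above 0 and every point of those on the right below it, which is how the genes were picked.

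The 456 other members held genes of neighbouring segments. Gata3, a transcription factor of the ureteric bud tree, stood at 290, 192, 157 and 152 CPM in them and at 46.7, 1.99, 0 and 10.6 in the Slc12a1 or Umod members. Calb1, a calcium-binding protein of the bud and of distal segments, stood at 718, 332, 99.0 and 244 against 81.8, 0, 0 and 60.3. All 6 members above 50000 UMIs lacked Slc12a1 and Umod; without them Gata3 stood at 183 and Calb1 at 340 CPM in the others of wildtype 1. At least 1 UMI of Gata3 or Calb1 was found in 161 of the 456 (35.3%), against 10 of 212 (4.72%). The proximal gene Pdzk1, a scaffold of transporters, had a mean log2 ratio of -3.20. The proximal tubule rule was met by 92 of the 456 (20.2%) and 28 of the 212 (13.2%). Other leading genes were Plac8 (-3.43), Rprm, a cell cycle inhibitor gene (-3.24), the T-box gene Tbx3 (-3.14), Scnn1g, a subunit of the sodium channel of the collecting duct (-2.77), and Ptplad2 (-2.58). Neither Gata3, Calb1 nor the proximal rule was found in 227 of the 456 (49.8%).

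This make-up differed between libraries. Gata3 or Calb1 was found in 42.0% and 41.9% of the wildtype and in 38.7% and 22.9% of the mutant members without Slc12a1 or Umod. Over all members, the ureteric bud list summed to 1579 and 903 CPM in wildtype and 456 and 518 in mutant libraries, and without the members above 50000 UMIs to 801 and 776 against 456 and 489. The stroma list summed to 480 and 436 against 1798 and 2232. The stroma list stood at 2635 and 1387 against 6851 and 6774 CPM in the other barcodes, so members carried 18.2% to 32.9% of the level outside. The neural list summed to 35.7 and 27.5 against 782 and 116 CPM, and 32 of the 49 Nefm UMIs of mutant 1 came from 1 barcode. These values stand beside every genotype comparison below, and their part in the results was tested only through the selections of barcodes named there.

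The comparison of genotypes began with the targeted genes. Hoxa9, Hoxa10, Hoxa11, Hoxd9, Hoxd10 and Hoxd11 are posterior Hox genes that pattern the trunk and are expressed in the developing kidney. Hoxd11 (chromosome 2, 74679557 to 74687016) gave 58.1 and 47.1 CPM in wildtype and 155 and 406 in mutant members, from 65, 125, 60 and 656 UMIs. It was found in 29.6% and 31.6% of wildtype and in 45.5% and 67.3% of mutant members. The mutants were higher without overlap, by 2.40 on the log2 scale (SE 0.40, edgeR adjusted p = 0.00803). Without mutant 2, Hoxd11 stood at 1.67 (adjusted p = 0.143), and without the members above 50000 UMIs at 2.05 (adjusted p = 0.161). Hoxd10 gave 37.5 and 38.8 against 75.1 and 140 CPM (a log2 difference of 1.48, SE 0.39, and an adjusted p of 0.134). Neither genotype stood clear of the other in Hoxa10 (149 and 178 against 124 and 202 CPM), Hoxa11 (12.5 and 48.2 against 28.5 and 52.6) or Hoxd9 (67.0 and 84.7 against 75.1 and 101). Hoxa9 gave 177 and 160 against 205 and 307 CPM, with an adjusted p of 0.999.

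None of the 6 genes was therefore lower in the members labelled mutant. The labels do not give the altered stretch of each gene, and a 3' tag outside it checks nothing. Hoxd11 shares its stretch of the chromosome with the predicted gene Gm28309 on the same strand, and how the authors divided such reads is not given in the sources used here. The genotype names are used below as the labels give them. Hoxc10, a paralogue that was not targeted, was also higher, at 19.7 and 41.4 against 95.9 and 140 CPM (1.88 on the log2 scale, SE 0.41, adjusted p = 0.0394), and Hoxc9 gave 3.57 and 25.6 against 93.3 and 92.2 CPM (2.48, SE 0.63, adjusted p = 0.274).

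**Figure D4:**
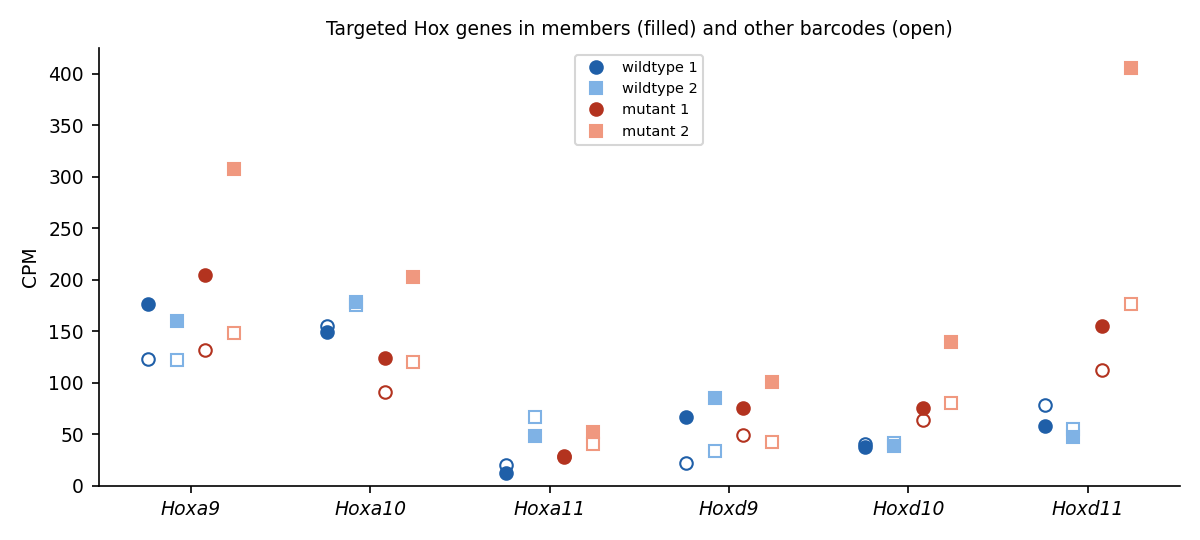
CPM of the 6 targeted genes in members (filled) and in the other barcodes within the mitochondrial limit (open), 1 point per library. The filled points of Hoxd11 stand at 58.1 and 47.1 in the wildtype and at 155 and 406 in the mutant libraries, and no gene has both mutant points below both wildtype points in members.

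Over 10547 genes, 31 differed between genotypes in members (0.294%), 24 higher (0.228%) and 7 lower (0.0664%) in the mutants. All 31 were without overlap between genotypes, as were 33.0% of all genes tested. Leaving out a wildtype library gave 26 calls (replicate 1) or 136 (replicate 2), and leaving out a mutant library 57 (replicate 1) or 82 (replicate 2); of the 31, 12, 26, 25 and 15 were among these, in that order. None of 16 loop transport genes, 17 segment transcription factors, 22 epithelial genes or 10 early distal nephron genes passed, with 1, 6, 0 and 1 of them at an unadjusted p under 0.05 and none called by DESeq2. Over all genes, 5.51% were at an unadjusted p under 0.05, the share to set beside these counts and those of the lists below. Their median log2 fold changes were 0.28, 0.06, -0.11 and 0.08, beside 0.01 over all genes. Without the members above 50000 UMIs they were 0.20, -0.06, 0.14 and -0.07, so that only the first kept its sign. From here on, CPM of single genes over all members include edgeR's TMM scaling, and list sums and CPM of sub-groups and of the interaction do not. Stk39, a kinase that activates Slc12a1, gave 17.0 and 24.7 against 50.6 and 28.5 CPM (adjusted p = 0.999). Irx3 gave 15.2 and 14.9 against 28.1 and 46.0 CPM (adjusted p = 0.467) and Tfap2a 32.1 and 22.0 against 8.43 and 9.32 (adjusted p = 0.518). Sox9, a factor of early distal nephron and bud tips, gave 291 and 138 against 81.4 and 84.4 CPM (adjusted p = 0.232).

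Genes of the stroma list were 6 of the 24 higher genes. On that list, 6 of 12 tested genes rose and none fell, with a median log2 fold change of 2.03 over the 12 in members and 1.31 in the other barcodes. Postn, a matricellular protein gene, rose from 7.15 and 21.6 CPM to 98.3 and 89.1 (2.59 on the log2 scale, SE 0.46, adjusted p = 0.00877). Dcn, a collagen-binding proteoglycan gene, rose from 36.6 and 35.7 to 169 and 150 CPM (2.13), and Col3a1 from 96.5 and 79.7 to 278 and 515 (2.19), both at adjusted p = 0.00877 in edgeR. Col1a2 rose from 195 and 80.9 to 761 and 742 CPM (2.46), Pdgfrb, the receptor of pericytes and stroma, by 3.57, Matn2, a matrix adaptor, by 3.58, Col6a2 by 3.32 and Col6a1 by 3.02. The last 4 rested on few UMIs. Pdgfrb gave 0 and 7 against 11 and 30, and Matn2 2 and 8 against 14 and 49. Col6a2 gave 2 and 7 against 5 and 53, and Col6a1 1 and 17 against 8 and 79. Agtr2, the type 2 receptor of angiotensin II (chromosome X, 21484544 to 21489164), had the smallest p and rose from 0.893 and 3.14 to 61.8 and 45.4 CPM (4.43, SE 0.60, adjusted p = 0.000816). Its UMIs were few, at 1 and 8 against 22 and 78, and 16 of the 22 in mutant 1 came from 1 barcode.

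The spread over barcodes was wider for Col3a1 and Dcn than for Agtr2. Agtr2 was found in 0.926% and 2.40% of wildtype and 11.4% and 16.2% of mutant members. Col3a1 was found in 12.0% and 16.4% of wildtype and 25.0% and 37.2% of mutant members, and Dcn in 6.48% and 9.20% against 18.2% and 25.2%. Where only the 212 Slc12a1 or Umod members were compared, Dcn stood at 111 and 67.6 CPM in wildtype and 43.0 and 37.7 in mutant libraries, and the 4 genes of the 6 that could still be tested had log2 fold changes from -1.19 to 0.91. These rested on few barcodes: of the Dcn UMIs there, 15 of 19 in wildtype 1 and 16 of 34 in wildtype 2 came from 1 member each. With barcodes that carry genes of other cell types (macrophage, endothelium, podocyte, proximal tubule or haemoglobin; stroma and ureteric bud were not among them) left out, 5 of the 6 could be tested, at a median of 0.52. Among members with at least 4 rule UMIs it was 2.18. No gene of the 31 passed in any of these selections. The stroma list within the Slc12a1 or Umod members summed to 865 and 720 CPM in wildtype and to 1151 and 1175 in mutant libraries.

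Several other genes had positive differences of over 1 on the log2 scale in the Slc12a1 or Umod members, where none passed the test. Hoxd11 stood at 129 and 59.7 against 194 and 419 CPM there (log2 fold change 1.81, adjusted p = 0.750), and Sparcl1, a secreted glycoprotein gene, at 0 and 15.9 against 43.0 and 87.5 (2.60, adjusted p = 0.750). Meg3, an imprinted noncoding RNA, stood at 175 and 71.6 against 1184 and 300 CPM (2.61), with 104 of its 110 UMIs in mutant 1 from 1 member, and Ptov1 at 70.1 and 87.5 against 387 and 244 (1.87). Over all members, Meg3 rose from 79.5 and 87.5 to 1017 and 346 CPM (3.01, SE 0.47, adjusted p = 0.00803), and 166 of its 362 UMIs in mutant 1 came from 1 barcode. Sparcl1 rose from 5.36 and 15.3 to 70.2 and 81.0 (2.77), Lrriq1 from 11.6 and 5.10 to 28.1 and 59.98 (2.59), and Fbxo32, a ubiquitin ligase subunit gene, by 2.92. The imprinted gene Dlk1, a delta-like protein gene beside Meg3 on chromosome 12, rose by 1.86 over all members and stood at -0.07 in the Slc12a1 or Umod members, where all 27 of its UMIs in wildtype 1 came from 1 member. The other higher genes were Col1a1, Gucy1a3, Zeb2, Alcam and Clmp, and 2 predicted genes.

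**Figure D5:**
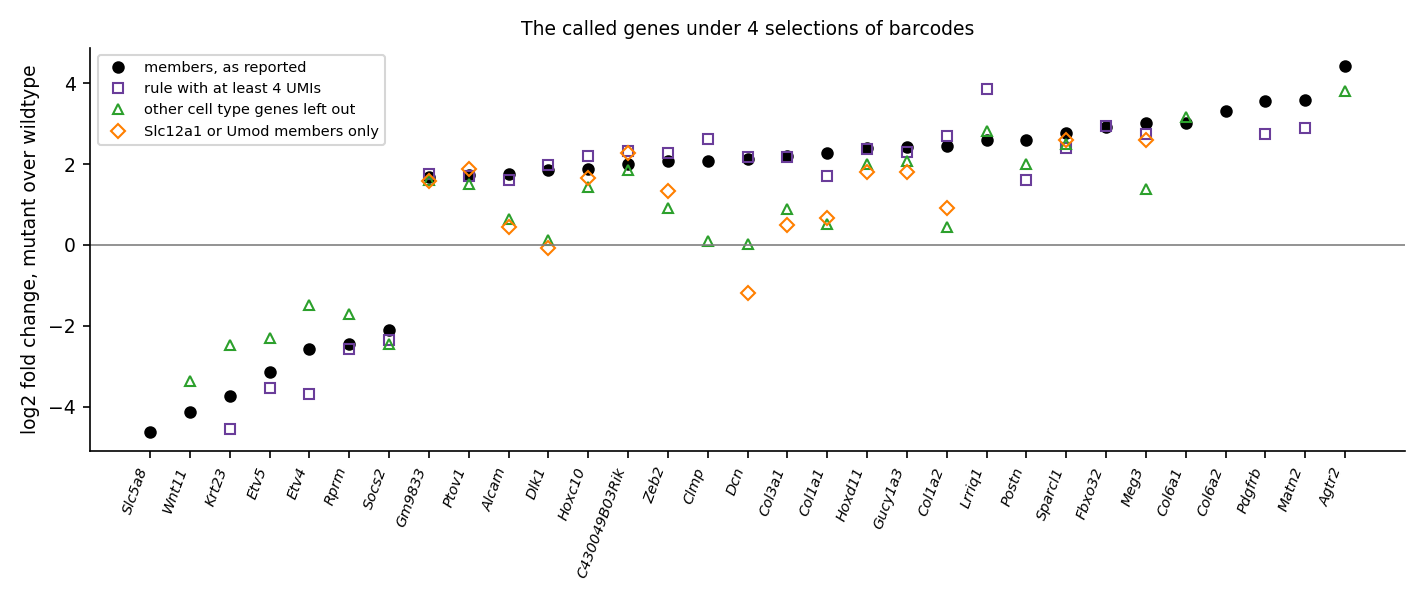
Log2 fold change, mutant over wildtype, of the 31 genes called in members under 4 selections of barcodes; a missing symbol means that the gene did not pass the filter on low counts there. In the Slc12a1 or Umod members Dcn is at -1.19 and Dlk1 at -0.07, and Hoxd11 is at 1.81 and Sparcl1 at 2.60.

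Genes of the ureteric bud list were 4 of the 7 lower genes. Of 12 tested genes on that list, 4 fell and none rose, at a median log2 fold change of -2.21 in members and -1.08 in the other barcodes. Without the members above 50000 UMIs it was -1.69 over 11 tested genes, of which none passed. Wnt11, a signal of the branching bud tip, fell from 45.6 and 24.3 CPM to 0 and 2.33 (-4.15 on the log2 scale, SE 0.74, adjusted p = 0.00877). Krt23, a keratin gene (-3.73), and Etv5 (-3.16) and Etv4 (-2.57), ETS factors that act downstream of the Ret receptor at the tip, fell too. Outside the list, Rprm fell from 382 and 146 to 56.2 and 43.1 CPM (-2.44, adjusted p = 0.0161), Socs2, an inhibitor of cytokine signalling, from 84.9 and 54.2 to 11.2 and 18.1 (-2.11), and Slc5a8, a solute carrier gene, from 16 and 35 UMIs to 0 and 1 (adjusted p = 0.0371). Slc5a8 lay under the 10 CPM limit for naming and is named as the last of the 7, after its values were seen. In the Slc12a1 or Umod members none of the 7 passed the filter on low counts, so their falls were not tested there. Wnt11 gave 1 and 2 UMIs in wildtype and 0 and 0 in mutant libraries of that sub-group. Krt23 gave 7 and 0 against 0 and 0, Etv5 2 and 13 against 1 and 6, and Slc5a8 0 in every library.

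Single deep barcodes supplied much of these genes in the wildtype libraries. In wildtype 1, 37 of 51 Wnt11 UMIs came from 1 member, as did 73 of 87 for Krt23, 106 of 137 for Etv5, 58 of 74 for Etv4 and 278 of 428 for Rprm. In wildtype 2, 30 of 62 Wnt11 UMIs came from 1 member. Members above 50000 UMIs gave 39 of 63 Krt23 UMIs and 97 of 372 Rprm UMIs there. Etv5 was spread wider in wildtype 2, in 47 of 250 members with at most 8 UMIs in any of them, and Etv4 in 47 with at most 12. The share of members with a UMI was 15.7% and 18.8% against 6.82% and 5.26% for Etv5, and 27.8% and 25.6% against 9.09% and 7.52% for Socs2. Without the members above 50000 UMIs, the log2 fold changes were -3.01 for Wnt11, -2.57 for Krt23, -2.02 for Etv5, -1.69 for Etv4, -1.52 for Rprm and -1.94 for Socs2, and none of the 7 passed. Of the 31 genes, 2 passed without those members, Agtr2 (4.11, adjusted p = 0.0150) and Postn (3.05, adjusted p = 0.0150).

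Most of these differences were not limited to members. Of the 31, 18 were also called in the same direction in the other barcodes, where 1.29% of 15596 genes passed. In the test of whether the genotype difference in members differs from that in the other barcodes, 47 of 13124 genes passed (0.358%), 17 with a higher and 30 with a lower mutant over wildtype ratio in members. Among the 31 called genes, 3 passed it: Lrriq1 (difference of log2 fold changes 2.95, SE 0.41, adjusted p = 0.000524), Agtr2 (2.38, SE 0.49, adjusted p = 0.0374) and Hoxd11 (1.27, SE 0.20, adjusted p = 0.00648). Without mutant 2, Lrriq1 (1.94, adjusted p = 0.324) and Hoxd11 (0.80, adjusted p = 0.353) did not pass, and 6 of the 47 genes did. Hoxd11 stood at 78.6 and 54.9 against 113 and 176 CPM in the other barcodes. Cited1, a regulator of nephron progenitors, differed most in p (4.26, SE 0.29, adjusted p = 1.94e-09): it stood at 32.2 and 44.8 against 38.9 and 32.2 CPM in members and at 124 and 153 against 7.87 and 5.67 outside. Against barcodes that met the proximal tubule rule in place of all others, Lrriq1 (3.55, adjusted p = 0.0451) and Hoxd11 (1.44, adjusted p = 0.0451) passed, and Cited1 (1.41, adjusted p = 0.335) and Agtr2 (1.72, adjusted p = 0.999) did not. The interaction is fitted on 8 sums with few residual degrees of freedom, and it called 90 or 117 genes when wildtype 1 or wildtype 2 was left out, and 184 or 21 when mutant 1 or mutant 2 was.

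Genes of other programmes gave few calls in members. Of 12 imprinted genes 2 rose (Meg3 and Dlk1), and none passed of 21 genes of oxidative phosphorylation (median log2 fold change -0.15), 14 of glycolysis (-0.33), 16 of DNA replication (-0.52), 16 of mitosis (-0.37), 10 of the Notch pathway (0.21), 21 of Wnt and BMP signalling (-0.07) or 11 immediate early genes (-0.07), with 0, 2, 2, 2, 1, 1 and 0 at an unadjusted p under 0.05 and none called by DESeq2. All 16 replication and all 16 mitotic genes had log2 fold changes below 0, as did 5171 of all 10547 genes. In the other barcodes, the medians of the replication and mitotic lists were -0.61 and -0.25. Pcna, the sliding clamp of DNA polymerase, gave 406 and 252 against 166 and 177 CPM (-0.94, adjusted p = 0.679), and Cdk1, the mitotic kinase, 136 and 187 against 61.8 and 91.4 (-1.04, adjusted p = 0.484). Mcm3 stood at -0.85 and Ube2c at -0.81. Bmp2, a bone morphogenetic protein, gave 28.6 and 27.1 against 8.43 and 5.82 CPM (-2.08, adjusted p = 0.205). Hes1, a Notch target, gave 211 and 108 against 312 and 295 CPM (0.93, adjusted p = 0.694), Notch1 stood at 0.71 and Lgr5, a Wnt co-receptor, at -1.11. The glycolytic genes Ldha (-0.93) and Pkm (-0.86) and the early genes Ier2 (-0.74) and Egr1 (-2.76) did not pass, although Egr1 did in 6 of 20 alternatives.

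All 9 tested proximal tubule genes lay below 0 (median -0.95, and -0.56 in the other barcodes) and none passed, with 1 at an unadjusted p under 0.05. Spp2 gave 9.83 and 9.42 against 0 and 2.33 CPM (adjusted p = 0.558) and Pdzk1 131 and 68.3 against 22.5 and 69.9 (adjusted p = 0.917). The proximal tubule list summed to 488 and 365 against 106 and 350 CPM, with mutant 1 apart from the other 3 libraries. None of 5 progenitor genes passed (Itga8 at 1.52 and Crym at -1.49), nor of 4 podocyte genes (Podxl at 2.10), 2 endothelial genes (Egfl7 at -0.85 and Emcn at -0.70), 5 haemoglobin genes (Hbb-y at -1.46 and Hbb-bt at -4.07), 4 neural genes (Nefm at 5.59 and Nefl at 2.75) or 17 anterior Hox genes (Hoxc8 at 2.68 and Hoxc6 at 2.35). In these 6 groups 3, 2, 0, 0, 2 and 4 genes were at an unadjusted p under 0.05, and DESeq2 called 1, the neural gene Nefm. Hoxc8 passed in 9 of 20 alternatives and Nefm in 8 of 18. No macrophage gene had enough UMIs to be tested in members.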

How the data were processed

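Members and gene lists were chosen with earlier results of these data known. The deposited tables hold raw counts per gene and barcode, whole numbers with at least 500 genes per barcode; per the submitters' processing notes, Bowtie2 2.2.7 and mm10 were used. Annotation, strand handling, the aligner's role and the collapsing of molecular identifiers are not given in the sources used here.

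Counts were summed over members per library and tested by robust quasi-likelihood in edgeR 4.0.16 (R 4.3.3), after filterByExpr and TMM scaling, with Benjamini-Hochberg adjustment over all genes and a threshold of 0.05. A standard error is the log2 fold change divided by the root of its F statistic. The interaction compared members with all other barcodes within the limit, with library as block. Doublets were not removed; Scrublet (scanpy 1.11.5) ranks gave an alternative. Called genes were named by size where they averaged 10 CPM or more without overlap, and list genes as up to 4 past the test or the 2 of smallest p. Predicted genes were counted only, and some genes the rules would name are not reported here. Positions are from GENCODE vM21. DESeq2 1.42.0 was an alternative. Scripts were tested on simulated data.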

Additional observations from a re-analysis of the deposited data

Results flagged for a closer look

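Barcodes above the mitochondrial limit were outside all comparisons, and some met the marker rule. They were 9 of 164 (5.49%) in wildtype 1 and 8 of 502 (1.59%) in wildtype 2, and 12 of 208 (5.77%) in mutant 1 and 143 of 1871 (7.64%) in mutant 2. Both mutant shares lay above both wildtype shares, but those of wildtype 1 and mutant 1 were nearly equal. The difference was not tested. With no mitochondrial limit, 45 genes were called in members in place of 31, and all 31 were among them.

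The genotype difference in members differed from that in the other barcodes, by the interaction test in edgeR, for 47 genes. Of the 17 with a higher mutant over wildtype ratio in members, 7 are named here. These were Cited1 (4.26), Lrriq1 (2.95), Agtr2 (2.38), Hoxc9 (1.82), Sall1 (1.56), Hoxd11 (1.27) and Pax2 (0.89), as differences of log2 fold changes. Cited1, Lrriq1, Agtr2 and Hoxd11 are given above. Hoxc9 stood at 3.57 and 25.6 CPM in wildtype and 93.3 and 92.2 in mutant members, and at 26.9 and 86.3 against 116 and 89.7 outside. Sall1, a zinc finger factor of nephron progenitors, stood at 19.7 and 25.6 against 25.9 and 39.6 CPM in members and at 48.8 and 44.2 against 13.3 and 27.9 outside. Pax2, a paired-box factor of the nephron and bud, stood at 144 and 162 against 244 and 83.5 CPM in members and at 112 and 154 against 88.2 and 46.8 outside. Against barcodes of the proximal tubule rule, Hoxc9 passed (2.27, adjusted p = 0.00504), and Sall1 (1.26, adjusted p = 0.458) and Pax2 (0.60, adjusted p = 0.999) did not. With a library left out, Hoxc9 was lost without mutant 2 (1.63, adjusted p = 0.0505), Sall1 without wildtype 1 (1.39, adjusted p = 0.0676) and without mutant 2 (1.96, adjusted p = 0.267), and Pax2 without wildtype 2 (0.70, adjusted p = 0.311) and without mutant 1 (0.65, adjusted p = 0.138). Cited1, Sall1, Pax2 and Hoxc9 were chosen after their values were seen, as were Sdpr and Ptn. Among the 30 genes with a lower ratio, the smallest p belonged to Sdpr (-4.02, adjusted p = 2.91e-07) and Ptn (-1.44, adjusted p = 8.85e-05). Sdpr stood at 38.4 and 37.3 against 2.59 and 9.90 CPM in members. Outside, it stood at 32.1 and 21.2 against 46.2 and 101. Against barcodes of the proximal tubule rule, Sdpr passed (-3.58, adjusted p = 0.0003985) and Ptn (-0.44, adjusted p = 0.999) did not. The endothelium list, of 10 genes, held 5 of the 47. In the other barcodes it summed to 337 and 233 CPM in wildtype and 316 and 771 in mutant libraries, highest in mutant 2. Members carried 18.2% to 32.9% of the stroma list level of the other barcodes, and the other barcodes include the progenitors. The part of the endothelium, stroma or progenitors in these differences was not tested.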

How the results depend on the processing

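With 2 libraries per genotype, precision is limited by their number and by mutant 1 (44 members). The share of members kept no stable direction: the difference of 0.247 points became -0.108 with at least 4 rule UMIs, -0.339 with 2 different rule genes and -0.439 with a 5% mitochondrial limit, and ran from -0.0925 to 0.586 with a library left out.

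The 31 calls depended on the choice of barcodes. Under at least 3 or at least 4 UMIs, 2 different rule genes, the rule without Sostdc1, thinning to 1000 UMIs, or Slc12a1 or Umod members only, 0 genes passed in edgeR, with 456, 365, 371, 286, 57 and 212 at an unadjusted p under 0.05. Leaving out barcodes with other cell type genes gave 1 (S100g, -4.45, adjusted p = 0.0347), leaving out barcodes above 50000 UMIs gave 2, DESeq2 gave 22 and no filter on low counts 82. Leaving out a library gave 26 to 136 calls (26 without wildtype 1, 136 without wildtype 2, 57 without mutant 1, 82 without mutant 2), where the lone library is assumed to vary like the other genotype. Of the 31, 12 to 26 were called again in those fits, and those that could be tested (30 or 31) had the same direction. Interaction calls numbered 19 against proximal tubule rule barcodes, 123 without the filter and 21 to 184 with a library left out. The removal of barcodes above 50000 UMIs, the Slc12a1 or Umod selection and the crossed pairing were chosen after seeing the data.

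The replicate numbers share only a label: across 10552 genes, the differences between replicates 1 and 2 correlated at r = -0.127 between genotypes. A replicate block gave 69 calls, with all 31 among them. A crossed pairing gave 24.

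Signs of single genes turned as follows. Hoxa10 (-0.02) became 0.05 with the 5% limit, 0.02 without the top Scrublet scores, 0.49 thinned, 0.15 without wildtype 2 and 0.17 without mutant 1 (-0.30 to 0.17 with a library left out). Hoxa11 (0.36) became -0.15 with 2 different rule genes, -0.19 without Sostdc1, -0.08 without other cell type genes, -0.27 without wildtype 1 and -0.07 without mutant 2 (-0.27 to 1.75), and Hoxd9 (0.19) -0.02 without wildtype 1 (-0.02 to 0.41). Cldn3 (-0.54) became 0.16 without barcodes above 50000 UMIs, 0.26 in Slc12a1 or Umod members and 0.02 without mutant 2 (-1.21 to 0.02). Dcn became -1.19 and Dlk1 -0.07 in Slc12a1 or Umod members. Egfl7 became 0.31 and Emcn 0.94 with at least 1 UMI, Egfl7 0.21 without other cell type genes, Hbb-bt 0.85 without wildtype 2 (-5.13 to 0.85), and Sdhb (-0.31) 0.03 without mutant 2 (-0.70 to 0.03). The cause was not tested for any of these. Of the named genes that did not pass as reported, Hoxc8 (9 of 20 alternatives), Nefm (8 of 18), Egr1 (6 of 20), Nefl (3 of 15), Hbb-bt (2 of 20), Crym (1 of 17) and Sox9 (1 of 20) gained a call.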
